A study of Homo sapiens with 6 samples.

Results

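The BCL2 family was followed in Huh7 cells, an established human hepatocellular carcinoma line, after siRNA silencing of SETD5, a SET-domain protein of chromatin. The members were chosen by symbol as 10 listed genes, of which 9 were among the 14200 genes of the deposited table: BMF, BCL2L11, BBC3, BID, BAD, MCL1, BCL2L1, BAX and BAK1. PMAIP1 was not analysed here. Poly(A) RNA was sequenced in 3 libraries of cells transfected against SETD5, labelled SETD5-deficient and called SETD5 knockdown below, and in 3 control libraries. All came from the same line, and what the control cells were transfected with is not stated in the labels. The labels do not state whether a group's libraries were grown as separate cultures. Its p-values therefore rest on library-to-library spread alone, and that spread may be technical.

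BCL2 family proteins decide whether the outer mitochondrial membrane is breached in apoptosis. The effectors BAX and BAK1 form the pores, the anti-apoptotic proteins MCL1 and BCL2L1 (BCL-XL) hold them in check, and BH3-only proteins bind the guardians or activate the effectors after stress. Many BH3-only proteins are controlled by the amount of their mRNA, which makes them a frequent readout of stress, whereas BID and BAD are known mainly for control of the protein, by cleavage and by phosphorylation. In hepatocytes MCL1 and BCL-XL are the guardians known to be needed for survival.

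What the 9 genes share is the BH3 helix, whose coding bases are shown because they are the feature that gives the BH3-only group its name. In 1 GENCODE 29 transcript per gene (GRCh38), each of the 9 coding regions held exactly 1 match to a residue pattern. It runs leucine, any pair of residues, 1 of alanine, isoleucine, methionine or valine, then 1 of glycine, alanine or serine. After these come aspartate, any residue, and 1 of phenylalanine, isoleucine, leucine, methionine or valine. These choices hold only residues present in the 9 stretches, so a match in every member was fixed in advance. The same pattern was found in 3.42% of the 11626 tested genes that had a usable transcript, so it is not particular to the family. Capitals mark the codons of the leucine and the aspartate, and the aspartate codon is GAT in MCL1 and GAC in the other members.
BMF: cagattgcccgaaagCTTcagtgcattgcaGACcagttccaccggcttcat
BCL2L11: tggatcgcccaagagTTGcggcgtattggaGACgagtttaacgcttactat
BBC3: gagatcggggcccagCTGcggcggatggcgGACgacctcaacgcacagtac
BID: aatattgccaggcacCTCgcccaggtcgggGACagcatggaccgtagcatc
BAD: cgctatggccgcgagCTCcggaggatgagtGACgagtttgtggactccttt
MCL1: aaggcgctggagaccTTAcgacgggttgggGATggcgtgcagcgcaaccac
BCL2L1: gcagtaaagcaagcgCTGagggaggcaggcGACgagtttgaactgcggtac
BAX: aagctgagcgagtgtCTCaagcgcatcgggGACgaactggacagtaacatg
BAK1: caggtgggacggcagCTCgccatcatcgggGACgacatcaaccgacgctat

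SETD5 itself was at 136, 140 and 138 CPM in the SETD5 knockdown libraries, against 212, 210 and 202 CPM in control (CPM, reads of a gene scaled to the library total, taken back from the deposited log2 scale). The groups did not overlap, and the mean after knockdown was 0.664 times the control (log2 fold change -0.59, limma adjusted p = 1.15e-17). The libraries held 14038447 to 17095417 recovered reads, and each member had between 50 and 5169 reads in a library. Of the 8 hepatocyte markers all were in the table, with a summed level of 37954 to 38172 CPM after knockdown and 41222 to 42113 CPM in control. At a limma adjusted p under 0.05, 6 of the 8 were lower and 1 was higher. The calls of AFP (lower) and ALB (higher) in this count held in 8 and 11 of 14 alternative settings, listed at the end. Among others, they ended in limma without the mean-variance trend (adjusted p = 0.114 and 0.0903). With 1 library left out, the limma adjusted p reached 0.0893 for AFP and 0.0715 for ALB. TTR, APOB and TF fell to 0.619, 0.682 and 0.784 times the control and passed TREAT. The 2 most abundant were AFP, at 20268 CPM after knockdown and 21336 CPM in control, and ALB, at 6912 CPM after knockdown and 6488 CPM in control. In bulk RNA, fewer cells of a type and less RNA per cell cannot be told apart. Of 5 immune markers 3 were in the table, summing to 628 to 705 CPM after knockdown and 258 to 284 CPM in control. Nearly all of that was lysozyme LYZ, also a secreted epithelial protein, while the defining leukocyte gene PTPRC stood at 1.59 CPM after knockdown and 1.13 CPM in control. The part of these markers in the results below was not tested. Fibroblast markers, 3 of 4 in the table, summed to 22.2 to 23.6 CPM after knockdown and 25.7 to 28.6 CPM in control. They did not move together, since COL1A1 fell to 0.659 times the control, COL3A1 rose to 1.97 times and PDGFRA did not pass. Endothelial markers, 2 of 4 in the table, summed to at most 0.938 CPM after knockdown and at most 1.35 CPM in control.

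Across the family, the BH3-only genes BMF, BCL2L11 and BBC3 rose and the effector BAX rose slightly, while the anti-apoptotic BCL2L1 and the effector BAK1 fell slightly. BID, BAD and MCL1 did not pass. At an adjusted p under 0.05 in limma, 4 of 9 members were higher after knockdown and 2 were lower, where 25.7% of all 12865 tested genes were higher and 26.5% lower. With either direction counted, 6 of 9 members stood against 52.1% of all tested genes, so the number of calls in the family was near the background. Groups without overlap were seen in the same 6 members, against 57.3% of all tested genes. Tested against a change of 1.2-fold by limma's TREAT, 2 members passed, BMF and BCL2L11, where 11.4% of all tested genes passed. The median log2 fold change of the 9 members was 0.14, beside -0.001 over all tested genes. By role, the median was 0.33 over 5 BH3-only genes, -0.039 over both guardians and -0.014 over both effectors.

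**Figure D1:**
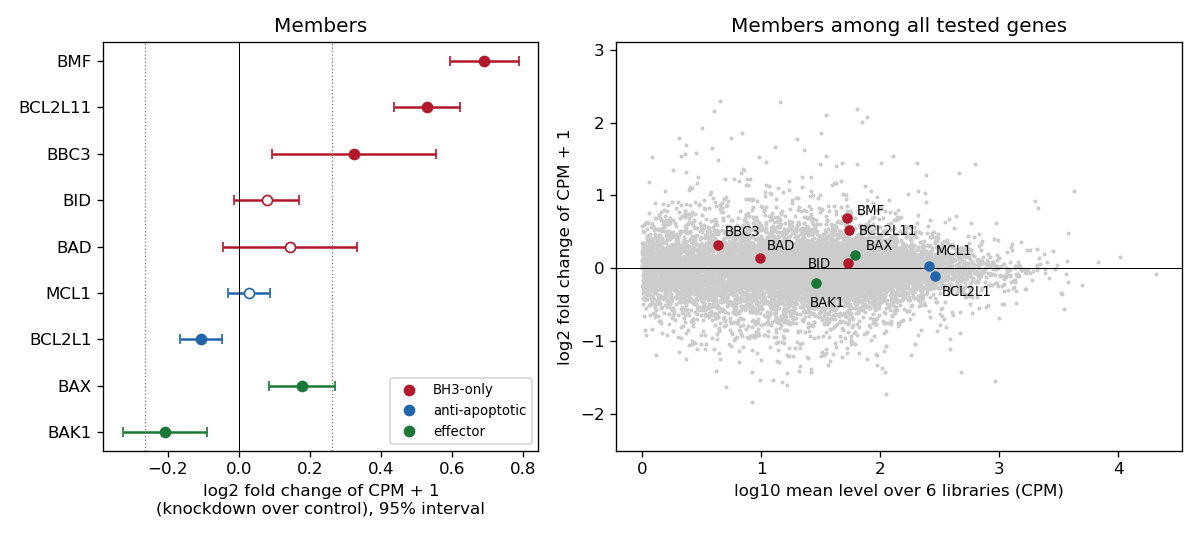
Left: log2 fold change of CPM + 1 (knockdown over control) of each member with its 95% interval from limma, coloured by role. Filled points passed at an adjusted p under 0.05, and dotted lines mark a change of 1.2-fold. Right: the same fold changes against the log10 mean level in CPM, with all 12865 tested genes in grey. BMF and BCL2L11 lie at 0.69 and 0.53, and the other 7 members lie between -0.21 and 0.33.

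BMF, a BH3-only protein that is known to be held at the cytoskeleton until stress releases it, showed the largest change of the 9 members. It was at 64.9, 63.6 and 67.0 CPM in the SETD5 knockdown libraries, against 39.3, 38.2 and 42.6 CPM in control. Every knockdown library was above every control library, with a gap larger than the spread within either group. The means were 65.2 ± 1.72 CPM after knockdown and 40.0 ± 2.3 CPM in control (SD, n = 3 each), a ratio of 1.63. On the log2 scale BMF rose by 0.69 (standard error 0.047), the limma adjusted p was 7.65e-15 and the TREAT adjusted p was 2.25e-09. Of all tested genes, 4.17% had a larger absolute change.

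BCL2L11 encodes BIM, which binds all anti-apoptotic family members and can activate BAX directly. Its levels were 67.1, 62.8 and 64.7 CPM after knockdown, against 46.5, 44.9 and 42.7 CPM in control, again without overlap. It averaged 64.9 ± 2.15 CPM after knockdown and 44.7 ± 1.92 CPM in control (SD, n = 3 each), 1.45 times the control. BCL2L11 rose by 0.53 on the log2 scale (standard error 0.046), the limma adjusted p was 3.76e-12 and the TREAT adjusted p was 1.41e-05. A larger absolute change was found in 8.22% of tested genes. The values sum over the splice forms of BIM, which differ in potency.

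Since BMF and BCL2L11 both rose past 1.2-fold, the 250 bases before the start of each are shown, from RefSeq on GRCh38.p14. The BMF window is chr15:40108880-40109129 on the minus strand and the BCL2L11 window is chr2:111120664-111120913 on the plus strand. Capitals mark matches, on either strand, to the FOXO word GTAAACA, the E-box CACGTG, the GC box GGGCGG and the CRE TGACGTCA. No 2 of the marked matches overlap.
BMF: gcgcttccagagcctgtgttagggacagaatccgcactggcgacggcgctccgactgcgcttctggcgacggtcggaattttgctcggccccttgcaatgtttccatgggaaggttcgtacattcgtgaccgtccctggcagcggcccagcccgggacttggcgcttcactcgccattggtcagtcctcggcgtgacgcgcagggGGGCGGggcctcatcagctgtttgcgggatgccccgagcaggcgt
BCL2L11: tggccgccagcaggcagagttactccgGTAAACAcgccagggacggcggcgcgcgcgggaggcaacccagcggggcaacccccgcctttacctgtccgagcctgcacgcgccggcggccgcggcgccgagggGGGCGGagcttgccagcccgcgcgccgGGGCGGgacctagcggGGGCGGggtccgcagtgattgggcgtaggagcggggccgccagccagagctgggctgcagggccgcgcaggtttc

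RefSeq gives BMF a second start, whose window held no match to any of the 4 words. The BMF window printed held 1 GC box, and the BCL2L11 window held 3 GC boxes and 1 FOXO word, which begins at base 28 of the window. Windows of this length held the FOXO word in 2.98% of 34788 RefSeq promoters and a GC box in 42.6%. No window of the other members held the FOXO word, and no window of a member held a CRE, which occurred in 1.64% of promoters. BAX had 4 E-boxes and BBC3 had 1. For BID, which did not pass, 2 of the 5 windows overlap and hold the same single E-box. An E-box was present in 6.31% of promoters. MCL1 had no entry in the promoter table. The BBC3 window lies 1473 bases from the start of the transcript used here. A match is a description of the letters only.

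BBC3 encodes PUMA, a strong BH3-only protein. It was the lowest member, at 5.25, 4.6 and 5.02 CPM after knockdown and 4.16, 3.55 and 3.57 CPM in control, from 50 to 84 reads per library. The knockdown libraries were all above the control libraries. BBC3 rose to 1.32 times the control, with a log2 fold change of 0.33, a 95% interval of 0.094 to 0.56 and a limma adjusted p of 0.0164. At these reads counting alone gives a CV of about 12%, and the call ended without knockdown replicate 1 (limma adjusted p = 0.0671) and without control replicate 2 or 3 (0.052 each). TREAT did not pass.

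BID, which caspase 8 cleaves to carry death receptor signals to mitochondria, was at 55.8, 54.0 and 56.2 CPM after knockdown and 54.2, 49.9 and 52.7 CPM in control. The groups overlapped, and BID did not pass (log2 fold change 0.080, 95% interval -0.012 to 0.17, limma adjusted p = 0.138). BAD, which growth factor signalling keeps phosphorylated and bound to 14-3-3 proteins, was at 11.2, 9.94 and 10.0 CPM after knockdown and 10.0, 8.08 and 9.93 CPM in control. Control replicate 2 was the lowest of the 6 libraries for both genes. BAD did not pass either (log2 fold change 0.14, 95% interval -0.045 to 0.33, limma adjusted p = 0.199). Without control replicate 2 the log2 fold change was 0.053 for BAD and 0.048 for BID. The upper end of the BAD interval reaches the fold change of BBC3, so BAD is not shown to be unchanged.

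Among the guardians, MCL1, a short-lived protein, was at 265, 255 and 261 CPM after knockdown and 249, 257 and 260 CPM in control. The groups overlapped, and MCL1 did not pass. Its log2 fold change was 0.028 with a 95% interval of -0.031 to 0.087 (limma adjusted p = 0.439), an interval within the limits of a 1.2-fold change. BCL2L1 was at 277, 284 and 277 CPM after knockdown and 303, 292 and 307 CPM in control. It fell to 0.929 times the control without overlap, from 4190 or more reads in each library, with a log2 fold change of -0.11 and a 95% interval of -0.17 to -0.047 (limma adjusted p = 0.00241). The call ended in limma without the mean-variance trend (adjusted p = 0.0611). Gene levels do not separate the long anti-apoptotic forms of BCL2L1 and MCL1 from their short pro-apoptotic forms.

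The effectors went opposite ways. BAX was at 66.2, 67.3 and 63.9 CPM after knockdown and 60.8, 53.6 and 59.8 CPM in control, with control replicate 2 the lowest. It rose to 1.13 times the control (log2 fold change 0.18, standard error 0.046, limma adjusted p = 0.00127). BAK1 was at 26.6, 28.5 and 25.5 CPM after knockdown and 32.3, 30 and 31.2 CPM in control. It fell to 0.862 times the control (log2 fold change -0.21, standard error 0.059, limma adjusted p = 0.00324). Both changes were under 1.2-fold, and 44.3% of tested genes changed more than BAX and 38.5% more than BAK1.

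**Figure D2:**
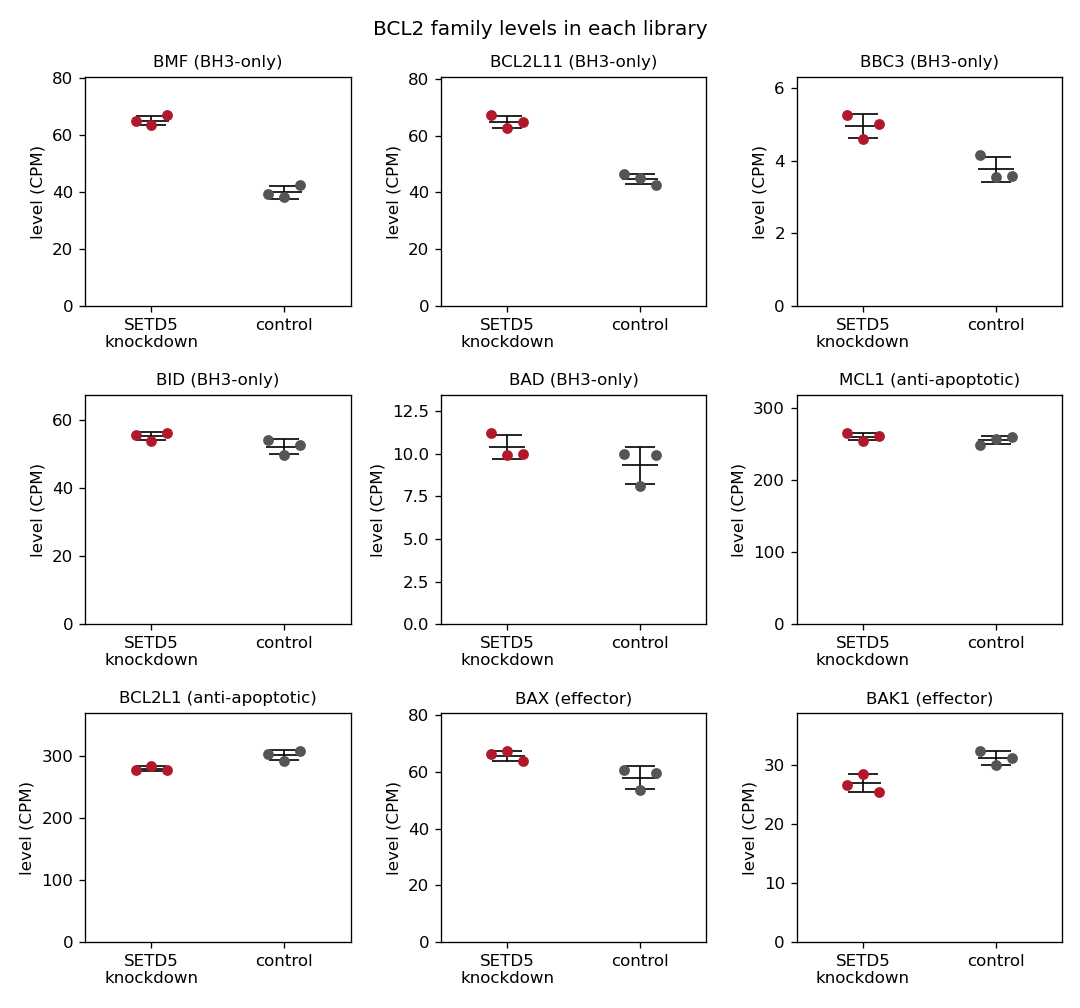
Level in CPM of each member in the 3 SETD5 knockdown libraries (red, left) and the 3 control libraries (grey, right), with the mean and SD. BMF, BCL2L11, BBC3 and BAX are higher in every knockdown library, BCL2L1 and BAK1 are lower, and the groups of BID, BAD and MCL1 overlap.

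For each of the 6 members without overlap, exact permutation (two-sided, all regroupings of the 6 log2 values) gave p = 0.1, which is the smallest this design allows. The p was 0.2 for BID and BAD and 0.4 for MCL1. The spread within groups can be set beside counting error. BMF had a CV of 2.63% after knockdown and 5.74% in control, where counting alone gives about 3.46%.

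Levels were set side by side per length of transcript, since CPM grows with length. In CPM per kb, the order in control was BCL2L1 (115), BAX (73.2), MCL1 (64.9), BCL2L11 (29.4), BID (20.9), BAK1 (14.6), BMF (8.54), BAD (8.07) and BBC3 (2.05). Neighbours in this order did not overlap over the 3 libraries, except BMF at 8.15 to 9.09 and BAD at 6.98 to 8.64 CPM per kb. After knockdown BMF stood at 13.6 to 14.3 CPM per kb, above BAK1 at 11.9 to 13.3, and the other 7 genes kept their places. Which isoforms these cells use was not measured. With the longest coding transcript per gene, BCL2L11 would be at 12.4 CPM per kb after knockdown and 8.55 in control, and would rank 6 of 9 in both groups in place of 4. BAX would then rank below MCL1.

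**Figure D3:**
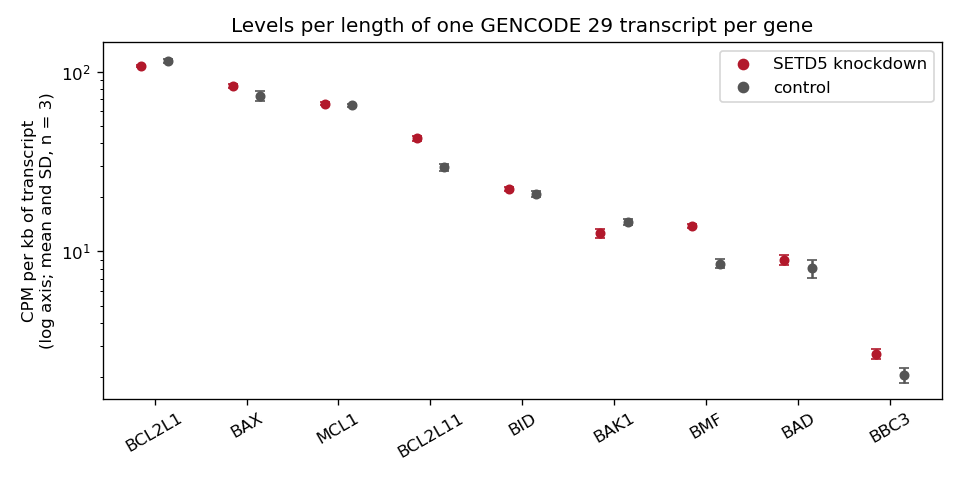
Level of each member in CPM per kb of 1 GENCODE 29 transcript (log axis, mean and SD over 3 libraries), with SETD5 knockdown in red to the left of control in grey. BCL2L1 is highest and BBC3 lowest in both groups, and BMF is above BAK1 after knockdown and below it in control.

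The balance of BMF, BCL2L11, BBC3, BAD, BAX and BAK1 against a guardian, and of the guardians MCL1 and BCL2L1 against each other, was followed as a ratio of CPM within each library, which no scaling of libraries can change. Of 9 pairs set up, 8 could be computed. BMF over BCL2L1 was 0.235, 0.224 and 0.242 after knockdown, against 0.130, 0.131 and 0.139 in control, a change of 1.76-fold. BCL2L11 over BCL2L1 was 0.243, 0.221 and 0.234 after knockdown, against 0.154, 0.154 and 0.139 in control, a change of 1.56-fold. For BCL2L11 over MCL1 the values were 0.254, 0.246 and 0.248 after knockdown, against 0.187, 0.175 and 0.164 in control, or 1.42-fold. All 3 ratios were higher in every knockdown library.

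The ratio over BCL2L1 was also higher in every knockdown library for BBC3 (1.42-fold), BAX (1.22-fold), BAD (1.2-fold) and MCL1 (1.10-fold). BAK1 over MCL1 was the only one of the 8 that was lower, at 0.1, 0.112 and 0.0979 after knockdown and 0.129, 0.117 and 0.120 in control, or 0.845-fold. None of the 8 ratios overlapped between groups, and an exact permutation test gave p = 0.1 for each, the smallest possible and not below any threshold after adjustment. The share of other gene pairs without overlap was not computed, so this count has no background beside it. Of all single tested genes, 57.3% had groups without overlap. The pairs share members, so they are not 8 separate observations. A ratio of mRNAs shows unequal change and says nothing of the proteins.

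**Figure D4:**
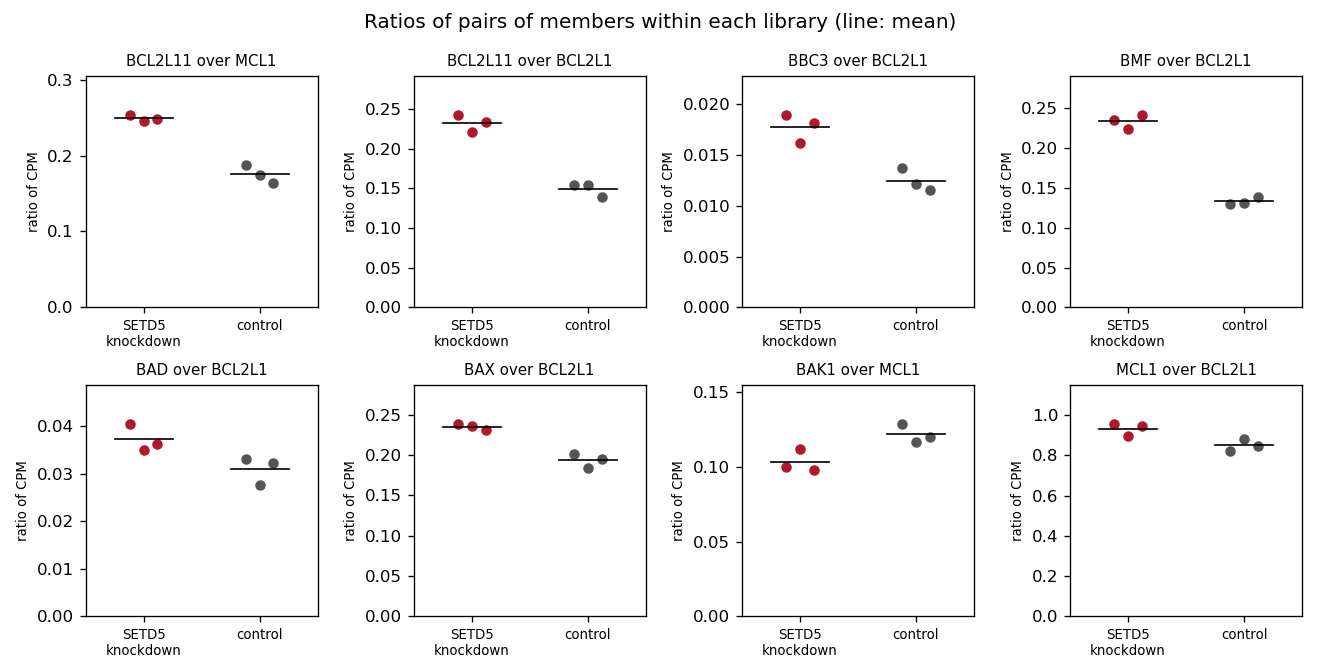
Ratio of CPM of each pair of members in the 3 SETD5 knockdown libraries (red, left) and the 3 control libraries (grey, right), with the mean as a line. The ratios are higher after knockdown in 7 pairs and lower for BAK1 over MCL1, and no pair overlaps. The share of other gene pairs without overlap was not computed.

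The gene whose values over the 6 libraries were most like those of BMF was UAP1L1 (Pearson r = 0.9994), followed by the metal transporter SLC39A14 (r = 0.9992) and the zinc finger gene ZNF317 (r = 0.9990). The correlations mostly reflect the difference between groups, and 1140 of the 12856 other genes had an r above 0.95.

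Genes around the family were read from lists of known roles, and each count below stands against the 25.7% higher, 26.5% lower and 52.1% either way of all tested genes. Of 7 other BCL2 family genes tested, 4 fell and 1 rose, with a median log2 fold change of -0.17. BNIP3, a mitophagy receptor with a BH3-like stretch, fell to 0.433 times the control, at 56.7 ± 2.42 CPM after knockdown and 131 ± 3.84 CPM in control. The guardian BCL2L2 fell to 0.812 times the control and the effector-like BOK rose to 1.16 times (limma adjusted p = 5.38e-05 and 0.0055). The BOK call ended without control replicate 2 (limma adjusted p = 0.0546). BIK, another BH3-only gene, was below the filter of 1 CPM and was not tested, and is given because it stood out once its values were seen. It had 12, 4 and 13 reads after knockdown and 1, 0 and 3 reads in control, counts too low for a reading of size.

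Downstream of the mitochondria, 2 of 14 genes of the apoptosome and caspases rose and 3 fell. APAF1, the scaffold that cytochrome c turns into the apoptosome, rose to 1.33 times the control, at 76.0 ± 1.1 CPM after knockdown and 57.2 ± 0.713 CPM in control (limma adjusted p = 1.35e-10). The executioner CASP6 rose to 1.2 times the control, while the initiator CASP9 stood at 14.3 CPM after knockdown and 14 CPM in control without passing. Of 7 inhibitors of apoptosis 4 rose and 1 fell. BIRC3, a ubiquitin ligase of TNF signalling, was at 2.96 ± 0.222 CPM after knockdown and 1.41 ± 0.351 CPM in control, a rise to 2.09 times. CFLAR, the decoy of caspase 8, fell to 0.877 times the control. NAIP rose to 1.21 times with a limma adjusted p of 0.045. The genome holds near-identical copies of it, and leaving out knockdown replicate 2 or 3 or control replicate 1 or 3 ended its call (limma adjusted p 0.0533 to 0.254).

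In the death receptor pathway 1 of 11 genes rose and 3 fell. The receptor TNFRSF1A fell to 0.711 times the control, at 70.4 ± 2.34 CPM after knockdown and 99.1 ± 5.92 CPM in control. The adaptor kinase RIPK1 fell to 0.866 times and DAXX rose to 1.2 times the control.

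Among 14 factors known to activate transcription of BH3-only genes, 6 rose and 4 fell. The 3 with the largest fold changes were MYC at 1.25 times, EGR1 at 0.796 times and FOXO4 at 1.25 times the control, and none of the 14 passed TREAT. FOXO1, of the same family as FOXO4, fell to 0.848 times the control (limma adjusted p = 0.000786). FOXO3, a known activator of BCL2L11, was at 46.8 CPM after knockdown and 47.1 CPM in control without passing. Of 24 partners and modifiers of the proteins, 8 rose and 5 fell. FBXW7, a ubiquitin ligase subunit that marks MCL1 for degradation, rose to 1.53 times the control, at 49.6 ± 1.1 CPM after knockdown and 32.4 ± 1.56 CPM in control (limma adjusted p = 2.01e-12). The 14-3-3 genes went both ways. SFN and YWHAB fell to 0.659 and 0.785 times the control, YWHAG, YWHAQ and YWHAZ rose to 1.13, 1.1 and 1.08 times, and YWHAE and YWHAH did not pass. DYNLL2, the dynein light chain that binds BMF, rose with a log2 fold change of 0.11 (limma adjusted p = 0.00964), and DYNLL1, its counterpart for BIM, stood at 237 CPM after knockdown and 242 CPM in control without passing. In each of these 6 lists both directions were seen.

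**Figure D5:**
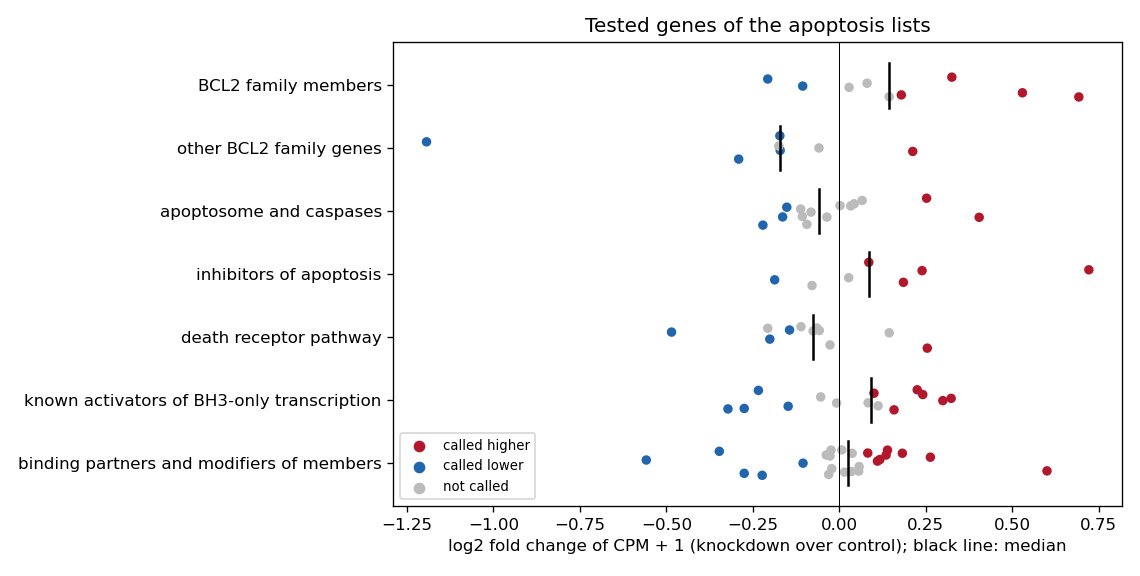
Log2 fold change of CPM + 1 (knockdown over control) of each tested gene, by list, with the 9 members in the top line and the median of each list as a black line. Red points passed as higher and blue as lower at a limma adjusted p under 0.05. Every list holds points on both sides of 0, and the medians lie between -0.17 and 0.14.

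Some members share exon bases with genes on the opposite strand in GENCODE 29. The libraries were stranded, but how reads were counted is not given, so such reads cannot be assigned for certain. The share of the transcript was 37.4% for BCL2L1 (with ABALON), 32.8% for BAD (with GPR137), 9.84% for BMF (with BMF-AS1), 9.53% for BCL2L11 (with MIR4435-2HG) and 4.26% for BAK1 (with GGNBP1). GPR137 was at 10.4 ± 0.986 CPM after knockdown and 9.64 ± 0.866 CPM in control, a level close to that of BAD. MIR4435-2HG was at 6.98 ± 0.231 CPM after knockdown and 8.68 ± 0.464 CPM in control (limma adjusted p = 0.0133), lower after knockdown, whereas BCL2L11 rose.

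The 6-base word GCACCT in 3' UTRs was searched because earlier results of these data had drawn attention to it. Of 3306 tested genes that hold it, 34.5% were called lower and 24.7% higher, while of 8196 genes without it 24.2% were lower and 27.9% higher. Since the word was picked from these same data, these shares give it no separate support. Median 3' UTR lengths were 2460 bases with the word and 783 bases without, and the shares were not matched for length. BMF and BAK1 hold it once each, and the other 7 members do not in the transcript used. The sites are printed to show that they differ outside the word, in capitals.
BMF: actgcacaaggGCACCTgcagctaatgg
BAK1: aggctgcagagGCACCTcaacattgcat

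BMF rose and BAK1 fell, so the members with the word went both ways. Its part in either change was not tested.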

How the data were processed

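The authors deposited 1 table of log2 values, named as normalized CPM, with 14200 genes in 6 columns. Per the submitters' processing notes, STAR 2.5.1, R 3.3.0 and the builds hg19 and mm10 were used, with no role stated, while the sources used here name no counting or scaling. Undoing the log gave whole multiples of 1 step per column for 100% of values (tolerance 0.01 reads), so the values are log2(CPM + 1) of whole reads, and 3 reads correspond to 0.176 to 0.214 CPM.

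Genes averaging 1 CPM or more over the 6 libraries (12865) were tested with limma 3.58.1 in R 4.3.3 (lmFit and eBayes, trend on, two-sided, group as the only term) on the deposited log2 values, and with TREAT against 1.2-fold. Benjamini-Hochberg adjustment ran over the whole tested table, with a threshold of 0.05. Fold changes on the log2(CPM + 1) scale understate changes of low genes. The fit was tested on simulated data. Chi-square statistics of reads were 1.25 to 2.10 per gene within groups and 19.7 to 24.1 between, so no column was a copy of another. The statistic cannot tell technical repeats of the same RNA or culture from separate cultures. Sequences came from GENCODE 29 transcripts (the highest APPRIS rank, then the longest) and RefSeq promoters, both GRCh38, matched by symbol (9 of 9 members for transcripts, 8 for promoters), with Python 3.11.15.

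The members and lists were chosen with earlier results of these data known. Named beside the members are up to 3 called genes per list with the largest change and 3 genes most like the most changed member, and the 2 most abundant hepatocyte markers. A few further list genes were named after their values were seen. These are FOXO3, CASP9, FOXO1, YWHAG, YWHAQ, YWHAZ, YWHAE, YWHAH, DYNLL1, DYNLL2, BIK and the markers LYZ, PTPRC, TTR, APOB, TF, COL1A1, COL3A1 and PDGFRA. Some genes and 1 list are not reported here. Precision from counting covers counting error only.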

Additional observations from a re-analysis of the deposited data

How the results depend on the processing

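The alternatives were limma without the trend, voom on recovered reads, a pseudocount of 0.1, no filter, a filter of 5 CPM, median centring, quantile normalization, the replicate number as a block, and each library left out. No log2 fold change of a member or of SETD5 turned direction. The calls of BMF, BCL2L11, BAX, BAK1 and SETD5 held under all 14, and BID, BAD and MCL1 passed under none. Limma without the trend ended the BCL2L1 call (-0.106 on the log2 scale, adjusted p = 0.0611), which left 1 member lower in place of 2, and left 3 called inhibitors of apoptosis in place of 5. The filter of 5 CPM removed BBC3.

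With 1 library left out, log2 fold changes ran from 0.66 to 0.737 for BMF, 0.497 to 0.558 for BCL2L11, 0.29 to 0.384 for BBC3, 0.123 to 0.213 for BAX, -0.127 to -0.09 for BCL2L1, -0.25 to -0.172 for BAK1, 0.053 to 0.192 for BAD, 0.048 to 0.106 for BID and 0.011 to 0.042 for MCL1. BBC3 lost its call without 3 of the 6 libraries, so 3 to 4 members were called higher. Called inhibitors of apoptosis numbered 3 to 5, with 3 without knockdown replicate 3 or control replicate 3. For all tested genes the count was 5981 to 6324. The cause of these changes was not tested.

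The deviations of same-numbered libraries from their group means correlated at -0.011, 0.054 and 0.042. Libraries of different numbers correlated at -0.06 to 0.021. Values this small, from 3 libraries per group, neither show nor exclude a pairing by replicate number. With the replicate block 6898 genes were called in place of 6706, the log2 fold change of BMF was 0.692 and no call of a member changed. Depth limits BBC3 and BAD, with 50 to 179 reads per library.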
